A study of Mus musculus with 4 samples.

Results

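Bcl2 family genes decide whether a cell keeps its mitochondria intact or dies, and 10 of them were followed here in blood stem and progenitor cells with and without a label of Hhex deletion. They were selected by symbol as pro-survival genes (Bcl2, Bcl2l1, Mcl1), pore-forming effectors (Bax, Bak1) and BH3-only genes (Bid, Bad, Bcl2l11, Bbc3, Pmaip1). All 10 of the 10 were found among the 26286 genes of the count table, and all 10 passed the filter on low counts that left 14912 genes. The cells were LSK cells from bone marrow of C57BL/6 mice, which lack lineage markers and carry Sca-1 and Kit. Of the 4 RNA-seq libraries 2 were labelled as carrying the Hhex deletion and 2 as wild-type. The sources used here do not give treatment, age, sex, the means of deletion or how many mice were used. The sex-linked genes below show that the libraries labelled Hhex-deleted came from different animals, but whether the wild-type libraries did is not known, so their spread may be technical.

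Proteins of this family share short helical segments through which they bind one another. Bcl2, Bcl-xL (from Bcl2l1) and Mcl1 hold back Bax and Bak, which otherwise open pores in the outer mitochondrial membrane, release cytochrome c and start the caspase cascade. BH3-only proteins carry a single such segment and either block the pro-survival proteins or activate the effectors. Mcl1 is a short-lived protein that blood stem cells need, and Bcl2 prolongs the life of stem cells and lymphocytes. Much of the control of these proteins acts on the protein itself, which counts of RNA do not measure.

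The sequence just upstream of the start is shown for Bcl2, the member whose counts passed the test below, and for Bax, the effector whose values differed less between libraries. Each run holds the 250 bases before the start of the transcript, from RefSeq's GRCm38.p6 (the deposited files used mm9), on the minus strand, at chr1:106714291-106714540 for Bcl2 and chr7:45466899-45467148 for Bax. Capitals mark TGACGT in Bcl2, and the p53 half-site and then ATTAA in Bax.
Bcl2: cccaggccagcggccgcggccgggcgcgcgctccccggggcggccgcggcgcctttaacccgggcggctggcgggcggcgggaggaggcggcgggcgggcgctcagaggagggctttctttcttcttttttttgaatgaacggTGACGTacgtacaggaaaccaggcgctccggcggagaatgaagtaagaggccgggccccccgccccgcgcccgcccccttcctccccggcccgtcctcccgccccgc
Bax: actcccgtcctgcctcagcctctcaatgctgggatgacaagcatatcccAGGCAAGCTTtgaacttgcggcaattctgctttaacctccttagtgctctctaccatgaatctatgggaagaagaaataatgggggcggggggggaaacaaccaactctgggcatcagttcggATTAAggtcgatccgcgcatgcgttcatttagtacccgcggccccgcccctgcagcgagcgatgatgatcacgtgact
TGACGT, the core of the sequence bound by CREB and ATF factors, began 107 bases upstream of the Bcl2 start. The half-site of p53, the tumour suppressor, began 201 bases upstream of the Bax start and did not overlap ATTAA, the core of sequences bound by Hhex, which began 78 bases upstream. Both strands of 32851 such windows were searched, of which 6.47% held TGACGT, 7.13% the p53 half-site, 24.9% ATTAA and 1.47% a CArG box, the element of serum-responsive genes. Windows were at hand for 9 members, 15 in all. TGACGT was found in 1 member (Bcl2), the p53 half-site in 1 (Bax), ATTAA in 3 (Bcl2l1, Bax, Bad) and the CArG box in 0. Some members had several windows, and the shares above are per window. By window, TGACGT was in 1 of the 15, the p53 half-site in 1, ATTAA in 3 and the CArG box in 0. A match describes the letters and is not evidence of binding.

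Total counts lay between 27871827 and 29501591 per library. Hhex itself, a homeobox transcription factor gene, stood at 127 and 115 CPM (counts scaled to a common library total) in wild-type. It stood at 179 and 188 CPM in the libraries labelled Hhex-deleted. This was a call in the higher direction (log2 fold change 0.6 ± 0.09 SE, edgeR adjusted p = 0.0271). Reads from exons outside a deleted part count towards the gene, so gene counts cannot check the labels, and every direction given is that of the labels. Of the genes for the sort markers, Kit stood at 109 to 135 RPKM and Ly6a, which encodes Sca-1, at 25 to 51.4 RPKM. None of 6 gate and stem cell genes was called by edgeR, DESeq2 or limma-voom, and 1 of them (Slamf1) was higher at an unadjusted p below 0.05. In labelled Hhex-deleted replicates 1 and 2, Procr stood at 8.43 and 23.8 RPKM, Ly6a at 25 and 51.4 and Flt3 at 77.1 and 138. In wild-type the same genes stood at 13.4 and 15, 30.7 and 30.7, and 82.4 and 75.5 RPKM. The lack of a call therefore does not show equal levels. Labelled Hhex-deleted replicate 1 stood apart, with 2660 CPM of Xist, the RNA of the inactive X chromosome, and 1.89 to 2.66 CPM in the other libraries. Ddx3y, on the Y chromosome, had 0.343 CPM there and 124 to 138 CPM elsewhere, and Eif2s3y, Kdm5d and Uty were likewise near 0 in it alone. That library thus had the pattern of female cells and the other 3 that of male cells, so sex differed within the group labelled Hhex-deleted and, in part, between the groups. For members and for pathway genes picked by the naming rule below, results whose call or direction changed without that library are given both ways. Other pathway genes were not followed singly, so further calls gained or lost without that library are not named. Calls in the gate and marker lists are given only with every library included. In RNA from a mixed population, fewer cells of a type and less RNA per cell cannot be told apart.

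Levels between genes were compared as RPKM, CPM divided by gene length in kilobases, in the wild-type order. Mcl1 ranked first, in the 91.9 to 96.5 percentile of tested genes. It was followed by the effectors Bak1 and Bax, whose wild-type ranges overlapped, and by Bid. Bcl2, Bad and Bcl2l1 came next, in this order. Bbc3, Bcl2l11 and Pmaip1 had the lowest levels, and the wild-type ranges of the last pair overlapped. Across all 4 libraries the ranges of Bcl2 and Bad overlapped too. Bcl2 lay above Bad in wild-type and below it in the libraries labelled Hhex-deleted. The ranges of Bak1 and Bid, of Bbc3 and Bcl2l11, and of Bbc3 and Pmaip1 also overlapped across these libraries. Those of Bbc3 and Pmaip1 did so within wild-type as well. Of the 4 most abundant members, 3 were pro-death genes (Bak1, Bax and Bid).

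**Figure D1:**
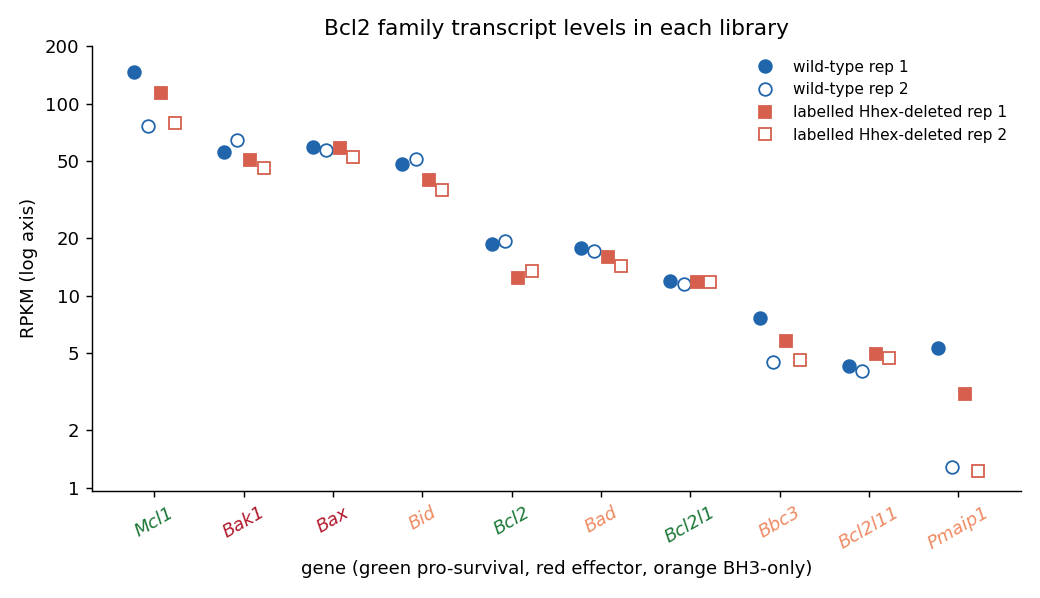
RPKM on a log axis of the 10 Bcl2 family genes, ordered by wild-type mean, with 1 point for each of the 4 libraries (circles wild-type, squares labelled Hhex-deleted, filled replicate 1, open replicate 2). Bcl2 lies lower in both libraries labelled Hhex-deleted, while Mcl1, Bbc3 and Pmaip1 lie higher in replicate 1 than in replicate 2 of both groups.

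Bcl2, which encodes the founding pro-survival protein, was the only member that passed the test. It stood at 18.5 and 19.3 RPKM in wild-type libraries and at 12.3 and 13.4 RPKM in those labelled Hhex-deleted. Both wild-type libraries were above both others, and the mean fell from 18.9 ± 0.602 to 12.9 ± 0.742 RPKM (SD, n = 2 each), 32% below wild-type. The log2 fold change was -0.56 ± 0.08 (SE; 95% interval -0.75 to -0.36), with an adjusted p of 0.0288 by edgeR's quasi-likelihood test with Benjamini-Hochberg adjustment over all genes. The direction was the same whichever library was left out (-0.61 to -0.5), and the call held when the library with the female pattern was the one omitted (-0.5, edgeR adjusted p = 0.0436). The call was lost without wild-type replicate 1 (edgeR adjusted p = 0.0894), without wild-type replicate 2 (0.162) and with limma on the deposited log2 RPKM values (0.065).

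The other pro-survival members did not pass the test. Bcl2l1, whose splice forms encode the pro-survival Bcl-xL and the pro-death Bcl-xS and are not separated by gene counts, stood at 11.9 and 11.5 RPKM in wild-type and 11.8 and 11.8 RPKM in the libraries labelled Hhex-deleted. These 4 values lay within a narrow band, and the 95% interval of the log2 fold change, 0.01 ± 0.09 (SE), ran from -0.22 to 0.24. Mcl1 stood at 146 and 76.4 RPKM in wild-type and at 114 and 79.8 RPKM in the libraries labelled Hhex-deleted. Its groups overlapped, and replicate 1 was the higher library in each. The log2 fold change of Mcl1 was -0.2 ± 0.42 (SE; 95% interval -1.5 to 1.11, edgeR adjusted p = 0.902), and it was 0.34 without wild-type replicate 1 and 0.05 without labelled Hhex-deleted replicate 2. The RPKM ratio of Bcl2 to Bcl2l1 was 1.55 and 1.68 in wild-type and 1.05 and 1.14 in the others.

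Neither effector passed the test. Bax, which moves from the cytosol to mitochondria when activated, stood at 59.3 and 57.3 RPKM in wild-type and at 59.1 and 52.6 RPKM in the libraries labelled Hhex-deleted. These groups overlapped, with a log2 fold change of -0.06 ± 0.09 (SE; 95% interval -0.29 to 0.16, edgeR adjusted p = 0.84) that was 0.03 without labelled Hhex-deleted replicate 2. Bak1, whose product sits in the mitochondrial membrane at rest, stood at 55.7 and 64.9 RPKM in wild-type and at 50.6 and 46.4 RPKM in the others. Its groups did not overlap, but the log2 fold change of -0.32 ± 0.1 (SE; 95% interval -0.56 to -0.07) did not pass after adjustment (edgeR adjusted p = 0.195). The difference between the changes of Bax and Bak1 was not tested.

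Among the BH3-only genes none passed the test. Bid, whose product links death receptors to mitochondria after cleavage by caspase-8, stood at 48.7 and 51.3 RPKM in wild-type and at 40 and 35.5 RPKM in the libraries labelled Hhex-deleted. Both wild-type values lay above both others. The log2 fold change of Bid was -0.41 ± 0.09 (SE; 95% interval -0.62 to -0.19), with an edgeR adjusted p of 0.0787. Bid passed with DESeq2 (adjusted p = 0.0129), and by edgeR when labelled Hhex-deleted replicate 1 was left out (log2 fold change -0.49, adjusted p = 0.0445). Bad, which survival kinases switch off by phosphorylation, stood at 17.6 and 17 RPKM in wild-type and at 15.8 and 14.2 RPKM in the others, a log2 fold change of -0.21 ± 0.11 (SE; 95% interval -0.47 to 0.06, edgeR adjusted p = 0.462). Reads of Bad may be shared with the overlapping gene Gpr137, which had 792 to 921 counts per library, and those of Bak1 with Ggnbp1, which had 104 to 131. The same holds for Bcl2l1 and Cox4i2, with 40 and 35 counts in wild-type and 10 and 10 in the others. Acoxl, which overlaps Bcl2l11, had 6 and 5 counts in wild-type and 10 and 19 in the others.

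Bcl2l11, which encodes Bim, the BH3-only protein that removes cells deprived of cytokines, was the one pro-death member with higher values in both libraries labelled Hhex-deleted. It stood at 4.31 and 4.04 RPKM in wild-type and at 4.94 and 4.73 RPKM in the others. The log2 fold change was 0.21 ± 0.11 (SE; 95% interval -0.05 to 0.47) and did not pass (edgeR adjusted p = 0.435). With Bcl2 lower and Bcl2l11 at this level, the RPKM ratio of Bcl2 to Bcl2l11 was 4.29 and 4.78 in wild-type and 2.5 and 2.83 in the libraries labelled Hhex-deleted. Bbc3, which encodes the p53 target Puma, stood at 7.68 and 4.52 RPKM in wild-type and at 5.79 and 4.62 RPKM in the others. Pmaip1, which encodes Noxa, a p53 target that binds Mcl1, stood at 5.35 and 1.28 RPKM in wild-type and at 3.06 and 1.22 RPKM in the others. In both genes the groups overlapped and replicate 1 was the higher library of each group, with log2 fold changes of -0.23 ± 0.28 and -0.63 ± 0.92 (SE; edgeR adjusted p = 0.801 and 0.847) that were 0.2 and 0.74 without wild-type replicate 1.

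**Figure D2:**
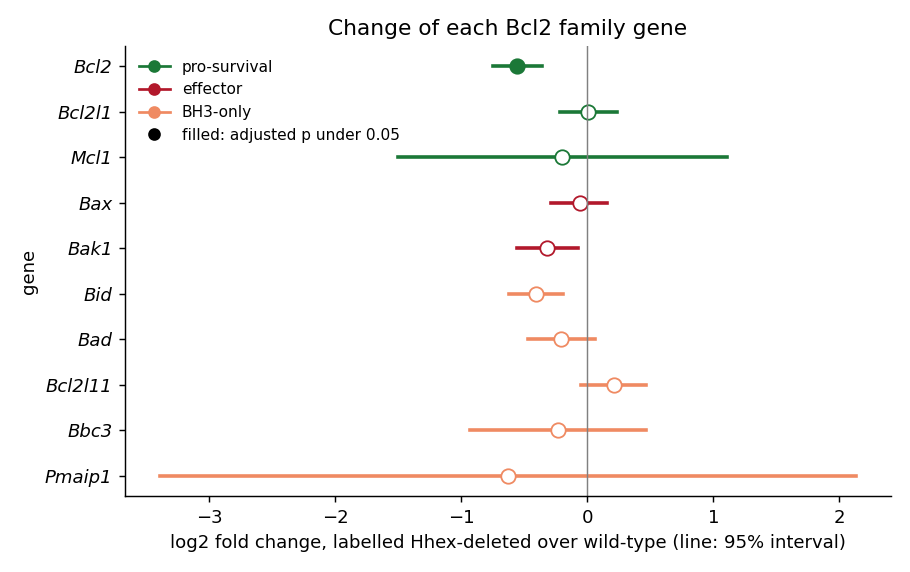
Log2 fold change of each of the 10 genes, libraries labelled Hhex-deleted over wild-type, with its 95% interval as a line (green pro-survival, red effector, orange BH3-only, filled where the adjusted p was under 0.05). Bcl2 alone is filled, at -0.56, and the intervals of Mcl1, Bbc3 and Pmaip1 are the widest of the 10.

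Of the 10 members, 1 was lower and 0 were higher by edgeR's test, where 1.12% of all tested genes were lower, 1.48% higher and 2.6% either. None was higher at an unadjusted p under 0.05, nor by DESeq2 or limma-voom. At an unadjusted p under 0.05, 3 members were lower (Bcl2, Bak1 and Bid), where 8.23% of tested genes were. The groups did not overlap in 4 members with lower values (Bcl2, Bak1, Bid and Bad) and in 1 with higher values (Bcl2l11), against 23.7% and 21.9% of tested genes. Log2 fold changes were below 0 in 8 of 10 members, with a median of -0.22, where the median of all tested genes was -0.005. The medians by role were -0.2 for the 3 pro-survival and -0.23 for the 7 pro-death members, both below 0.

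Summed RPKM set the roles against each other within a library. The 3 pro-survival members summed to 176 and 107 RPKM in wild-type and to 138 and 105 RPKM in the libraries labelled Hhex-deleted. The 7 pro-death members summed to 199 and 200 RPKM and to 179 and 159 RPKM. The ratio of the sums was 0.888 and 0.535 in wild-type and 0.772 and 0.659 in the others, so both libraries labelled Hhex-deleted lay between the wild-type ones. Mcl1 made up 71.2% to 82.8% of the pro-survival sum, which without it ran from 24.1 to 30.8 RPKM. Without Mcl1 the ratio was 0.153 and 0.154 in wild-type and 0.135 and 0.158 in the others. Within the balance, the ratio of Bcl2 to Bax was 0.312 and 0.337 in wild-type and 0.209 and 0.255 in the libraries labelled Hhex-deleted. The ratio of Bcl2l1 to Bax was 0.201 and 0.201 against 0.2 and 0.224. RPKM divides by the whole annotated gene length, 7749 bases for Bcl2 and 869 for Bax, so transcripts that use only part of it are understated.

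**Figure D3:**
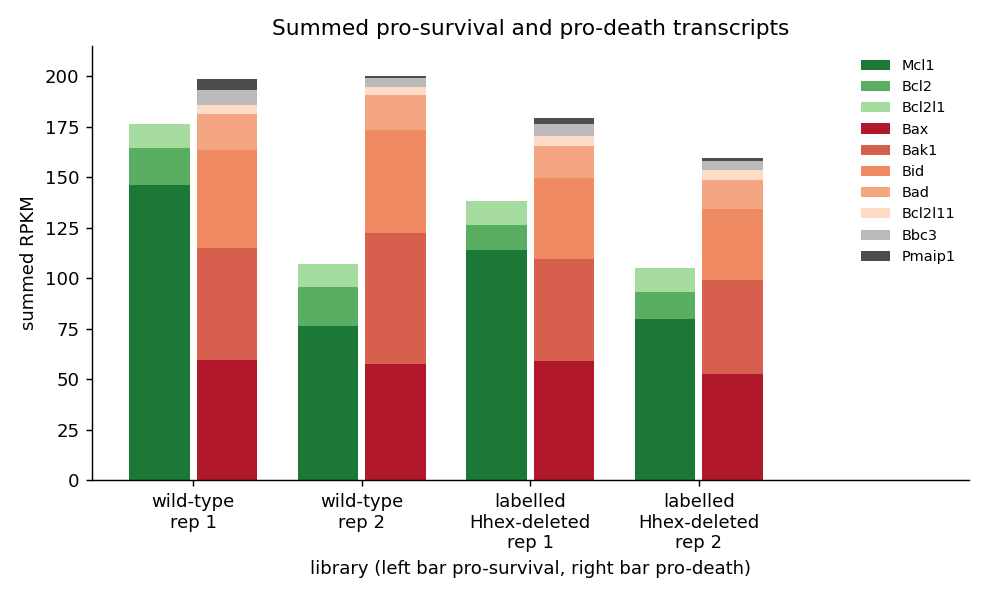
Summed RPKM per library, with the 3 pro-survival genes stacked in the left bar and the 7 pro-death genes in the right bar of each of the 4 libraries. Mcl1 fills most of each left bar and is taller in replicate 1 of both groups, while the right bars run from 159 to 200 RPKM.

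For Mcl1, Bbc3 and Pmaip1 the replicates of a group differed more than the group means did. Mcl1 was 1.91 times as high in replicate 1 as in replicate 2 in wild-type and 1.43 times in the libraries labelled Hhex-deleted. For Bbc3 these CPM ratios were 1.7 and 1.25, and for Pmaip1 4.18 and 2.5. The other 7 members had ratios between 0.858 and 1.13. A ratio of at least 1.2 in both groups, a bound chosen after the values were seen, was found in 3 of 10 members and in 4.12% of tested genes. Cdkn1a, a p53 target that halts the cell cycle, also had ratios of 3.59 and 2.04. It was named after its values were seen, as was Mdm2, the p53 target that degrades p53, with 1.11 and 1.11. Of 12 p53 target genes 2 reached the bound in both groups. Immediate early genes, which respond quickly to growth factors and stress, were listed after the values were seen, and 12 of 12 reached it, with ratios from 2.65 to 164. Their summed level was 6030 and 563 CPM in wild-type and 3820 and 597 CPM in the libraries labelled Hhex-deleted. Their part in the levels of Mcl1, Bbc3 and Pmaip1 was not tested.

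**Figure D4:**
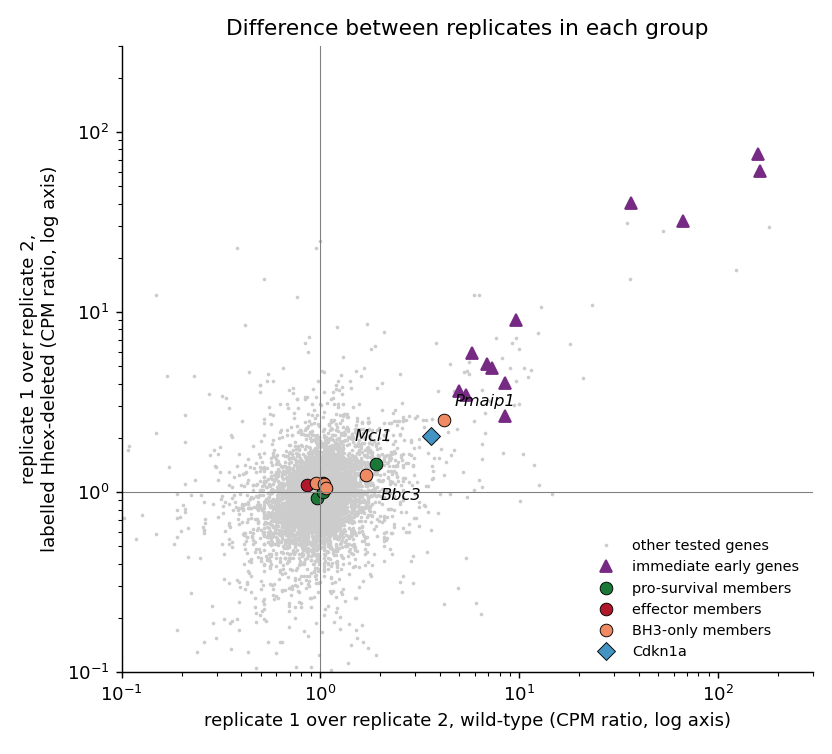
CPM in replicate 1 divided by CPM in replicate 2, wild-type on the x axis and labelled Hhex-deleted on the y axis (both log), for tested genes in grey, members as coloured circles, Cdkn1a as a diamond and 12 immediate early genes as triangles. Axes run from 0.1 to 300 and leave out 79 genes; Mcl1, Bbc3 and Pmaip1 lie above 1 on both axes, as do the 12 triangles, and the other 7 members lie between 0.858 and 1.13.

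The rest of the family was measured at lower levels or without a call. Bcl2l2, which encodes the pro-survival protein Bcl-w and was named after its values were seen, stood at 11.5 to 12.9 RPKM, close to Bcl2l1. Bcl2a1a, Bcl2a1b and Bcl2a1d, near-identical pro-survival genes that may share reads, summed to 45 and 45 counts in wild-type and to 42 and 63 counts in the others. The log2 fold changes were 0.42 for Bcl2a1b and -0.5 for Bcl2a1d, without a pass. That of Bcl2a1d was 0.08 when labelled Hhex-deleted replicate 1 was left out. Bcl2l10 and Bcl2a1c had 0 counts in every library, where 3 counts would be 0.0995 to 0.109 CPM. Of the other pro-death genes, Bok (-0.21) and Bmf (-0.11) did not pass. Without labelled Hhex-deleted replicate 1, Bok had 0.05 and Bmf 0.2. Hrk had 1 count in wild-type replicate 1 and 0 in the other libraries. Among the relatives of less settled role, Bcl2l14 (-0.8 ± 0.27 SE, edgeR adjusted p = 0.218) and Bcl2l13 (-0.13) had the lowest unadjusted p and did not pass.

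Upstream and downstream of the members, 80 pathway genes were listed, of which 73 were tested. By edgeR 1 was higher and 2 were lower, with a median log2 fold change of 0.01. Il7r, the receptor for interleukin-7 that keeps lymphoid progenitors alive, rose from 1.16 and 1.05 to 7.62 and 9.83 RPKM, with both libraries labelled Hhex-deleted above both others (log2 fold change 2.98 ± 0.18 SE, edgeR adjusted p = 0.00407). Csf3r, the receptor for granulocyte colony-stimulating factor, fell from 63.2 and 71.9 to 46.4 and 47.8 RPKM (-0.52 ± 0.09 SE, edgeR adjusted p = 0.0459). The call of Csf3r was lost under 8 of 11 alternatives, among them leaving out any 1 library (edgeR adjusted p from 0.0609 to 0.253). Tnfrsf1a, the death receptor for tumour necrosis factor, fell from 59.3 and 69.4 to 39.4 and 43.2 RPKM (-0.64 ± 0.1 SE, edgeR adjusted p = 0.038). Its call was lost when wild-type replicate 2 (edgeR adjusted p = 0.175) or either library labelled Hhex-deleted (0.069 for replicate 1 and 0.0548 for replicate 2) was left out, and under 2 other alternatives.

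The execution machinery held no call among 14 apoptosome and caspase genes, with 1 higher and 1 lower at an unadjusted p under 0.05, 1 called by DESeq2, 0 by limma-voom and a median of 0.01. Htra2, a mitochondrial protease released with cytochrome c, had -0.35 (edgeR adjusted p = 0.145), and -0.47 (0.0468) when labelled Hhex-deleted replicate 1 was left out. Among 6 inhibitors of apoptosis none passed, and 2 had an unadjusted p below 0.05, Birc2 (0.27) and Birc6 (0.26). DESeq2 and limma-voom called 0 of these 6. The outer membrane partners Vdac2 (-0.1) and Mtch2 (-0.05) did not pass.

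Of 11 tested regulators none passed by edgeR, with 4 higher at an unadjusted p under 0.05, 1 called by DESeq2, 0 by limma-voom and a median of 0.16. Foxo3, a transcription factor that activates Bcl2l11, stood at 20.7 and 20.2 RPKM in wild-type and at 25.4 and 25.7 RPKM in the others (0.32 ± 0.07 SE, edgeR adjusted p = 0.0911, DESeq2 adjusted p = 0.0402). Stat5a, which carries cytokine signals to pro-survival genes, had a log2 fold change of 0.24 (edgeR adjusted p = 0.173). Of 12 p53 target genes other than members none passed by edgeR, with 3 higher at an unadjusted p under 0.05, 1 called by DESeq2, 0 by limma-voom and a median of 0.25. Trp53inp1, which promotes p53-dependent death, had 0.89 ± 0.22 (SE; edgeR adjusted p = 0.139). It passed with DESeq2 (adjusted p = 0.000805) and by edgeR when labelled Hhex-deleted replicate 1 was left out (log2 fold change 1.17, adjusted p = 0.00985). Ccng1, a cyclin gene that p53 activates, had 0.25, Mdm2 -0.02 and Cdkn1a -0.56, the last with wild-type libraries at 27.7 and 7.72 RPKM.

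**Figure D5:**
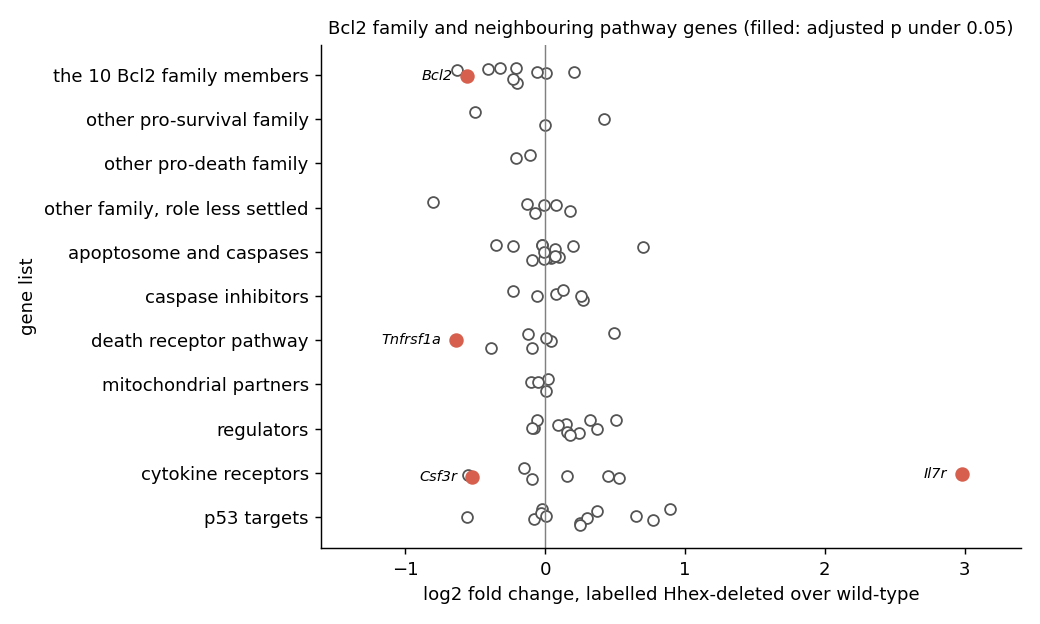
Log2 fold change of the 10 members and of 10 lists of pathway genes, libraries labelled Hhex-deleted over wild-type, with 1 point per tested gene (filled where the adjusted p was under 0.05). Bcl2, Tnfrsf1a, Csf3r and Il7r are filled, and Il7r at 2.98 is the farthest from 0.

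Markers of other cell types also moved between the groups compared for Bcl2. B lineage markers were higher in 7 of 8 genes, and their summed level was 41.4 and 46.3 CPM in wild-type and 134 and 175 CPM in the libraries labelled Hhex-deleted. Mast cell and basophil markers were higher in 5 of 7 genes, with sums of 567 and 535 CPM against 1430 and 1260 CPM. Cpa3 alone had 125 and 106 CPM against 578 and 533 CPM. Hdc of the same list went the other way, with a log2 fold change of -0.5, and did not pass (edgeR adjusted p = 0.438). Neutrophil markers passed in 0 of 6 tested genes by edgeR, with 0 at an unadjusted p under 0.05 and 0 by DESeq2 or limma-voom, and their sum was 486 and 991 CPM against 92 and 451 CPM. Monocyte and macrophage markers were higher by edgeR in 2 of 7 genes, C1qa and C1qb. By edgeR 2 others were lower at an unadjusted p under 0.05 without passing. DESeq2 called 3 genes of this list and limma-voom 2. The sums of the list were 224 and 259 CPM against 186 and 147 CPM. T and natural killer, erythroid, and stromal and endothelial markers had no call by edgeR, DESeq2 or limma-voom, with 1 of these genes at an unadjusted p under 0.05 (Cdh5). Cd3e, Cd3d, Cd3g and Cd8a, which define T cells, had 0 to 17 counts per library, while Cd4 had 57 to 86 counts, and no marker of these lists was at 0 in every library. The part of these cells in the lower level of Bcl2, Csf3r and Tnfrsf1a and the higher level of Il7r was not tested.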

How the data were processed

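The authors deposited raw read counts per Entrez gene for 4 libraries and, per library, log2 RPKM values. Tools named in the submitters' processing notes are Subread, featureCounts and limma, and the build is mm9. Their versions, the strand setting and the treatment of reads matching several genes were not given in the sources at hand. Of 26286 genes 6804 had no count. With gene length added back, the sorted deposited log2 values of the libraries lay within 0.000809 of each other at the median, so they had been brought to one distribution, a step no header records, and they served as an alternative.

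In R 4.3.3, edgeR 4.0.16 was run after filterByExpr (minimum count 10, minimum total 15), with TMM scaling, group as single term, robust quasi-likelihood fits and a threshold of 0.05 after Benjamini-Hochberg adjustment. RPKM was computed from counts, TMM-scaled totals of the tested genes and the deposited gene length. The SE is the log2 fold change over the square root of F, and the 95% interval uses its degrees of freedom. These and the count floors (3 counts) do not cover error outside these libraries. The test was tried first on simulated counts with independent replicates and no replicate or sex effect. That trial therefore does not cover such effects in these libraries. The smallest chi-square of a pair of libraries was 29.82 per degree of freedom, so no pair agreed within sampling noise. DESeq2 1.42.0 and limma 3.58.1 (voom) were alternatives. Promoter windows came from RefSeq.

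Members and lists were chosen with earlier results of these data known. All members are named, then in each list every gene past the test or, with none, the 2 with the lowest unadjusted p. Immediate early genes, Cdkn1a, Mdm2 and Bcl2l2 were added after values were seen. Genes named from marker lists were chosen likewise. One gene that the rule selects is not reported here.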

Additional observations from a re-analysis of the deposited data

How the results depend on the processing

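Depth was even and limits members little, while 2 libraries per group limit every test. The 11 alternatives kept the direction of Bcl2, Bak1, Bid, Bad and Bcl2l11, and other size factors, limma-voom and no low-count filter kept the call of Bcl2. Members lower numbered 2 with DESeq2 and 0 with the deposited log2 RPKM values, and 0 to 2 with a library left out. All genes higher and lower numbered 493 and 495 with DESeq2 and 114 and 65 with the deposited values, against 221 and 167, and 272 were lower with no low-count filter. Leaving a library out gave 84 to 366 higher and 40 to 231 lower. Pathway genes higher numbered 4 with DESeq2, and 1 to 4 with a library left out. Pathway genes lower numbered 1 with DESeq2 size factors in edgeR, 0 with upper quartile factors and 0 with the deposited values, and 0 to 1 with a library left out. Log2 fold changes that crossed 0 with a library left out ran from -0.01 to 0.03 for Bcl2l1, -0.58 to 0.34 for Mcl1 (0.05 without labelled Hhex-deleted replicate 2), -0.15 to 0.03 for Bax, -0.55 to 0.2 for Bbc3, -1.43 to 0.74 for Pmaip1, -1.5 to 0.08 for Bcl2a1d, -0.51 to 0.05 for Bok, -0.51 to 0.2 for Bmf, -0.14 to 0.05 for Mtch2, -1.2 to 0.64 for Cdkn1a and -0.09 to 0.06 for Mdm2 (0.01 with the deposited values). The log2 difference in the balance of summed RPKM, 0.05, ran from -0.32 to 0.41 with a library left out and was -0.07 without Mcl1, each less than the SD between replicates (0.38) from it. The causes were not tested.

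Labels give both groups replicates 1 and 2 without saying that a number marks a shared day or animal. Over genes, the difference of replicate 1 from 2 correlated between groups (0.378). With the replicate number as a block, Bcl2 was called (edgeR adjusted p = 0.0405), pathway genes higher numbered 2 and lower 1, as Csf3r did not pass (0.0514). All genes higher and lower numbered 185 and 130 with the block. Among the members, the reported pathway genes picked by the naming rule, Cdkn1a and Mdm2, the block changed no other call. Other genes named here were not followed singly with the block.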

Other observations

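All 12 listed immediate early genes differed between replicates of each group by more than any of the 10 Bcl2 family members did. Counts are given for 3 of them, named after their values were seen. Egr1, a zinc finger transcription factor gene, had 25458 and 396 counts in wild-type and 13790 and 444 counts in the libraries labelled Hhex-deleted. Nr4a1, a nuclear receptor gene that T cells induce on receptor signalling, had 19530 and 128 counts and 6207 and 85 counts. Atf3, a stress-induced transcription factor gene, had 628 and 4 counts and 236 and 4 counts. In each of these genes both replicate 1 libraries were far above both replicate 2 libraries, and the groups overlapped.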
